A study of Taeniopygia guttata with 169 samples.

Results

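The 150 genes described here rose stepwise in the bone marrow of control zebra finches, from day 6 to day 18 and again from day 18 to day 35, and then held their level to day 90. They are 150 of the 17292 genes in the table. Each gene was chosen on the mean of log2(normalised count + 1) over the control birds of each age. The highest of the 4 means had to be at least 5, each of the 2 steps at least 0.5, and the day 35 and day 90 means less than 0.5 apart. The 150 genes with the largest difference between day 35 and day 6 were kept, and 4 others that met the conditions were not. The rise in control birds is therefore how the genes were found and carries no test here. The MeHg birds played no part in the choice, and the tests of the age course below rest on them alone.

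The marrow of a bird forms its nucleated red cells, its thrombocytes (the counterpart of platelets), its heterophils (the counterpart of neutrophils) and its monocytes, and it holds lymphocytes, stroma, fat and bone-lining cells beside them. The cell makeup of the marrow changes as a young bird grows, while B cells mature in a separate organ, the bursa of Fabricius. RNA of whole marrow reads all of these cells together, so a larger number of cells of a type and more RNA per cell cannot be told apart. The table names genes by Ensembl identifier, and the reference table used here paired 0 of them with a symbol. For this reason the genes have no roles, positions or sequences here, and the tissue was not checked against marker genes.

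Marrow came from zebra finches, a small songbird, at 4 ages (days 6, 18, 35 and 90). Birds either received the organic mercury compound methylmercury (MeHg) in their food at 1.2 ppm or were labelled as controls. The design text says that the birds bred had differing past exposure, which the labels do not give bird by bird. The control groups, in order of age, held 7 females and 10 males, 11 and 10, 10 and 9, and 10 and 11, which makes 17, 21, 19 and 21 birds. The MeHg groups held 9 females and 6 males, 9 and 16, 10 and 11, and 8 and 14, which makes 15, 25, 21 and 22 birds. Every group held birds of both labelled cohorts. No label states that every library came from its own bird, and p-values here reflect only how far libraries vary.

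Libraries held between 4572638 and 14968673 assigned reads, with a median of 7637898. Their RNA integrity number (RIN) moved with age: MeHg birds of day 6 had 7.74 ± 0.46 (SD, n = 12), those of day 18 had 8.66 ± 0.35 (SD, n = 18), those of day 35 had 8.89 ± 0.38 (SD, n = 18) and adults of day 90 had 8.86 ± 0.35 (SD, n = 17). A few libraries stood apart. The rule leaves out control day 90 replicates 15 and 16, both females, and MeHg day 90 replicate 7, also a female, lay as low as they did in the 150 genes. MeHg day 18 replicate 26, a male, was the lowest of its group. The counts below are given with and without these birds where they move.

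In the control birds that chose the genes, the first step of the 150 genes had a median of 1.26 on the log2 scale and the second a median of 0.85. From day 35 to day 90 it was 0.13, with single genes between -0.38 and 0.49. Over the whole climb from day 6 to day 35 the genes ranged from 1.23 to 7.82 with a median of 2.17. Over all 14042 genes tested these 4 medians were 0.02, 0.03, 0 and 0.01. The genes ranged widely in abundance: their day 35 means in control birds ran from 4.56 to 13.34 on the log2 scale. All 150 passed the filter on low values.

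**Figure D1:**
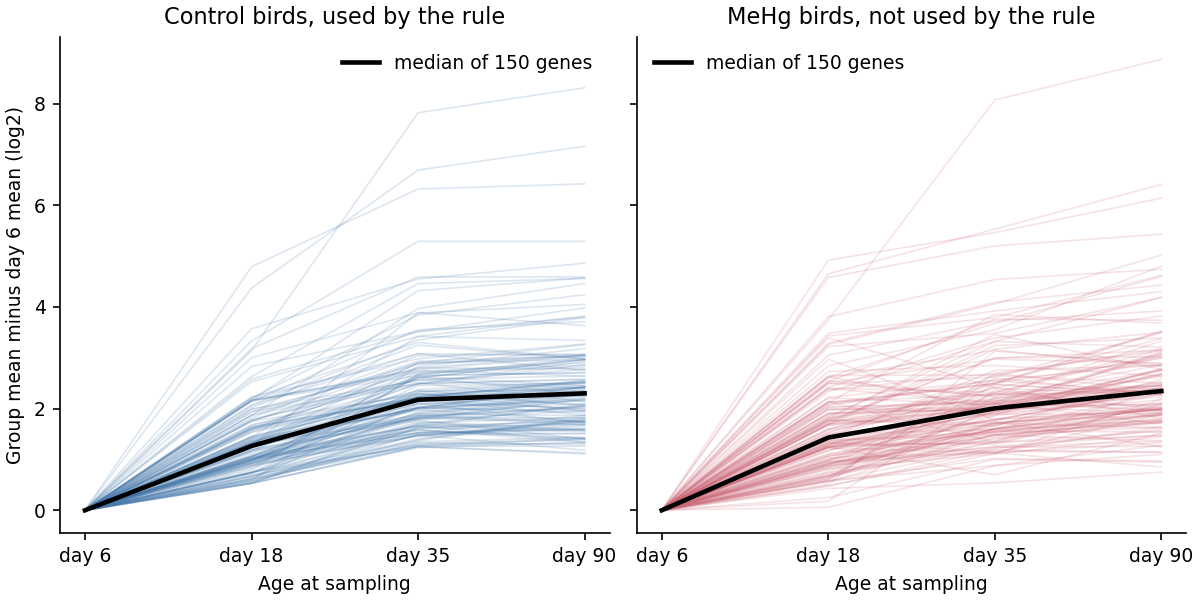
Mean of each of the 150 genes at each age minus its own day 6 mean, on the log2 scale, in control birds (left) and MeHg birds (right), with ages evenly spaced. Thin lines are genes and the black line is their median, which in MeHg birds climbs by 1.43 to day 18 and then more slowly, where in control birds the rule set 2 clear steps.

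The climb from day 6 to day 35 recurred in the MeHg birds, which did not choose the genes. There all but 2 of the 150 genes rose (limma, Benjamini-Hochberg adjusted p under 0.05 over all genes tested) and 0 fell, where 28.4% of the 14042 genes tested rose and 27.4% fell. The median rise of the 150 was 2.04, with the middle 50% of genes between 1.69 and 2.56, against a median of 0.01 over all genes tested. The estimate was above 0 in all 150. In 30 of the 150 genes the lowest day 35 MeHg bird lay above the highest day 6 MeHg bird, which held for 1.37% of the genes tested. Since RIN was lowest at day 6, the fit was repeated on the 65 MeHg birds with a RIN. All but 5 of the 150 genes rose there (24.9% of genes tested). With RIN as a covariate 88.7% of them rose (18.4% of genes tested), with a median rise of 1.80.

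The steepest climb was that of ENSTGUG00000029343. At day 6 its normalised counts in MeHg birds ran from 0 to 5.47 with a median of 3.32, at day 18 from 6.37 to 200.3 with a median of 50.3, at day 35 from 358 to 11689 with a median of 839 and at day 90 from 209 to 6335 with a median of 1680. The first 3 ages did not overlap, bird for bird, while day 90 lay over the range of day 35. It rose by 4.14 ± 0.37 (SE) in the first step and by 4.30 ± 0.30 (SE) in the second on the log2 scale (limma, adjusted p = 2.5e-15 and 7.16e-19). Of the 150 genes it is the 1 in which day 35 cleared day 18 without overlap, and no other of the 14042 genes did so (0.00712% of genes tested). In the control birds whose values chose it, the medians were 3.36, 39.96, 1312 and 1241, and day 35 (from 48.5) did overlap day 18 (up to 167.4).

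ENSTGUG00000020499 had the second largest climb in control birds, where the medians of days 6, 18 and 35 were 2.46, 64.5 and 311.8 normalised counts. On the log2 scale most of that climb fell in the first step, and so did most of the climb in MeHg birds. Its MeHg birds ran from 1.28 to 42.1 normalised counts at day 6, from 50.4 to 452 at day 18, from 103.9 to 589 at day 35 and from 31.8 to 1988 at day 90. Day 6 lay wholly below day 18, as in 5 of the 150 genes (0.712% of genes tested), and day 18 and day 35 overlapped over most of their ranges. The first step was 4.95 ± 0.37 (SE) and the second 0.91 ± 0.30 (SE) on the log2 scale (limma, adjusted p = 1.21e-18 and 0.0138). ENSTGUG00000023653 came from the floor: in day 6 MeHg birds its median was 0 and its highest value 0.936, against 6.20 to 91.6 at day 18. That step of 5.22 ± 0.34 (SE, adjusted p = 1.11e-21) was the largest to day 18 among the 150, and its size rests on the pseudocount of 1 because most day 6 birds had no read. From there its median moved from 38.9 at day 18 to 41.98 at day 35, a step of 0.62 ± 0.27 (SE) that did not pass (adjusted p = 0.0682).

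**Figure D2:**
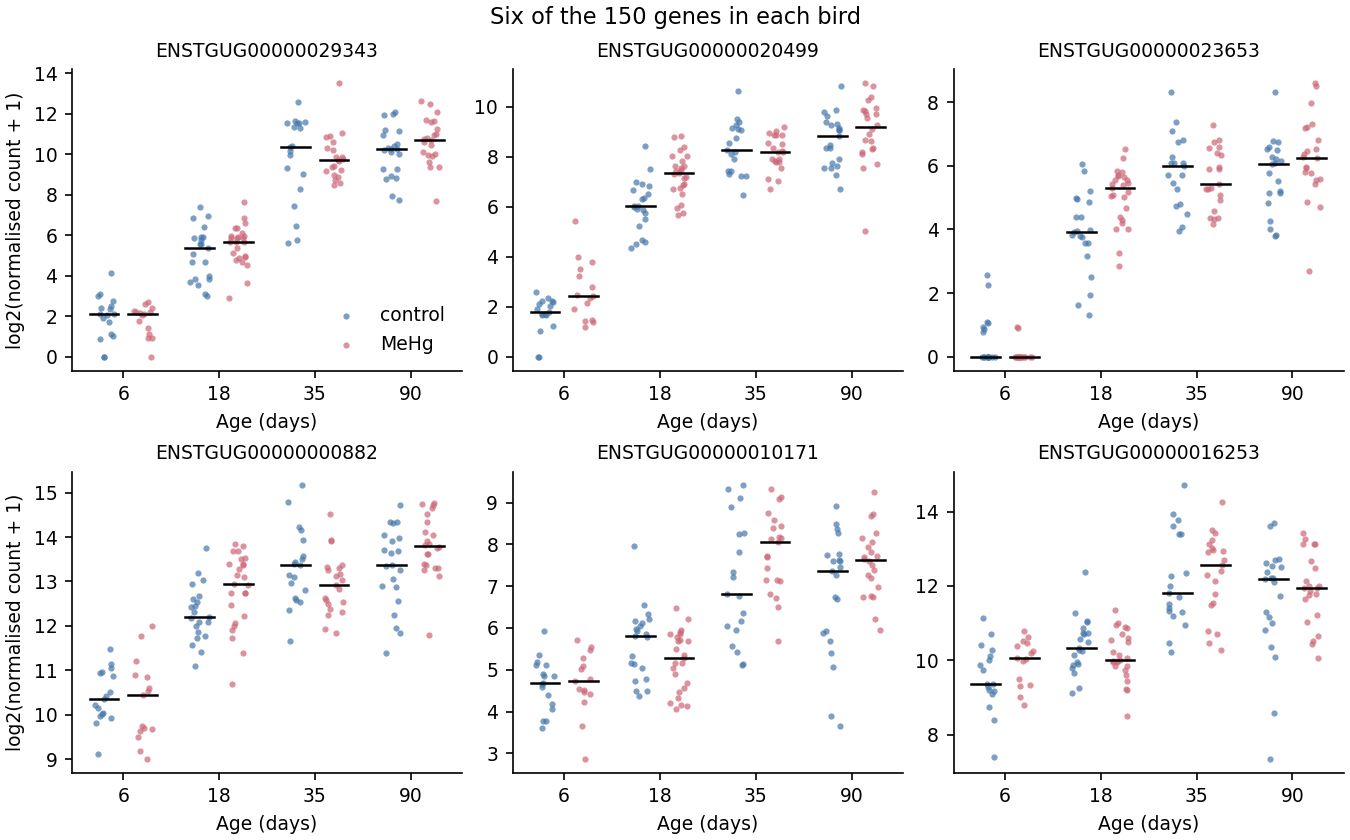
Values of 6 of the 150 genes in each bird, as log2(normalised count + 1), by age in days (evenly spaced) and treatment, with bars at the group medians. ENSTGUG00000029343 climbs in 2 separate steps, ENSTGUG00000020499, ENSTGUG00000023653 and ENSTGUG00000000882 gain most of their climb by day 18 in MeHg birds, and ENSTGUG00000010171 and ENSTGUG00000016253 climb mainly after day 18 there.

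Taken step by step, the MeHg birds repeated the first step in nearly all genes and the second in fewer. In the first step, to day 18, all but 9 of the 150 rose and 0 fell (28.4% of genes tested rose and 27.6% fell), with a median of 1.49. With RIN as a covariate 68% of them rose (22.7% of genes tested), against 87.3% in the same libraries without it (26.2%). In the second, to day 35, 78 rose and 2 fell (17.3% of genes tested rose and 15.9% fell), with a median of 0.54. In 16 genes the estimate of the second step was below 0. By group means, 96% of the genes were at least 0.5 higher at day 18 than at day 6, and 50% were at least 0.5 higher at day 35 than at day 18, where the rule set both in control birds. Among all genes tested these shares were 21.1% and 9.90%. In the control birds of the rule the second step lay nearer the limit of 0.5 than the first. The middle 50% of the 150 genes ran from 0.63 to 1.13 in the second step and from 0.93 to 1.67 in the first. Because that limit chose the genes, the steps of control and MeHg birds cannot be compared fairly, and a difference between them was not tested.

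A rise was called in both steps in 72 of the 150 genes (3.67% of genes tested). It was called in the first step alone in 67 (18.5%), in the second alone in 6 (13.7%) and in neither in 3 (57.9%). The shares of 13.7% and 57.9% also count genes that were called as falling in a step. The other 2 rose to day 18 and fell again by day 35 (6.26%), and they are ENSTGUG00000021898 and ENSTGUG00000011941. ENSTGUG00000021898 had medians of 196 normalised counts at day 6, and 1985, 630 and 1020 at the later ages in MeHg birds, and its second step was -1.13 ± 0.36 (SE, limma, adjusted p = 0.0122). Its day 18 birds (462 to 7699) and day 35 birds (261 to 8799) overlapped almost throughout. ENSTGUG00000011941 had medians of 7.07, 80.6, 30.5 and 57.4, with a second step of -1.03 ± 0.41 (SE, adjusted p = 0.045), and that call was lost under 10 of the alternatives tried. In control birds, whose means chose them, the medians of both genes were higher at day 35 than at day 18, at 865 against 671 and at 64.5 against 28.3.

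A direct test of the difference between the 2 steps within MeHg birds called 77 of the 150 genes (46.8% of genes tested). In 72 the first step was the larger and in 5 the second. The test takes the second step minus the first with its sign, which was below 0 in 22.6% of genes tested and above 0 in 24.1%. Those shares include genes that fell, so they are not shares of rising genes. The median of the second step minus the first was -0.85, against 0 over all genes tested. On the 65 MeHg birds with a RIN the numbers were 63 and 6, and with RIN as a covariate in the same birds they were 50 and 7. Part of the fall from 72 thus came with the smaller set of birds. Without MeHg day 18 replicate 26 the numbers were 79 (23.3% of genes tested) and 5 (24.3%). No such test was made in control birds, since the rule fixed both of their steps.

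**Figure D3:**
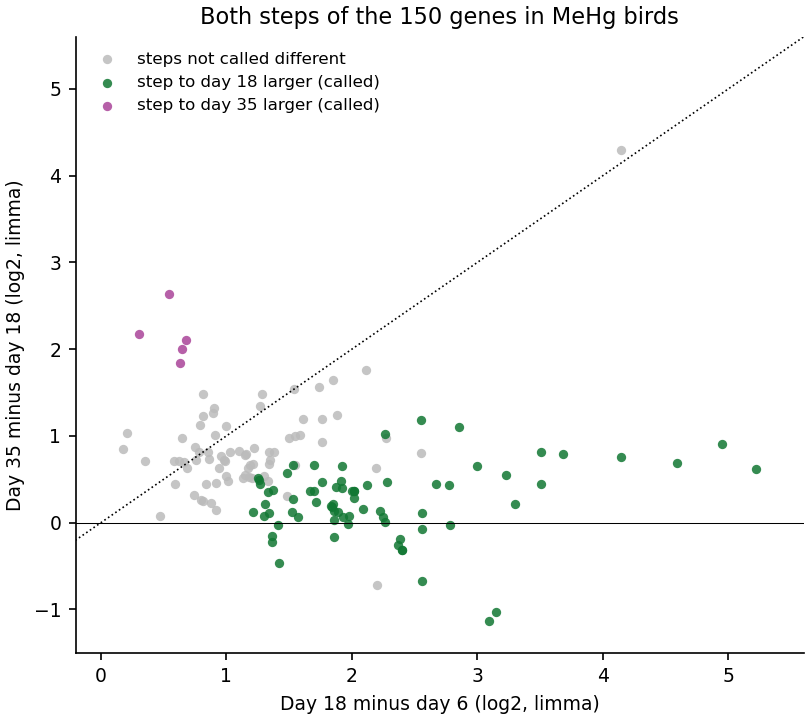
Change from day 6 to day 18 (horizontal) and from day 18 to day 35 (vertical) of each of the 150 genes in MeHg birds, both as log2 differences from limma. Points below the dotted line of equal steps changed more in the first step. The 72 genes called that way are green and the 5 called the other way are purple.

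Of the 5 genes that climbed mainly after day 18 in MeHg birds, ENSTGUG00000010171 and ENSTGUG00000016253 had the largest gaps between the steps, 2.08 ± 0.45 and 1.88 ± 0.45 (SE, limma, adjusted p = 8.97e-05 and 0.000432). ENSTGUG00000010171 had medians of 25.5, 37.9, 267 and 197 normalised counts over the 4 ages. Its second step of 2.63 ± 0.24 (SE) passed (adjusted p = 1.05e-13), and its first of 0.54 ± 0.30 (SE) did not (adjusted p = 0.116). ENSTGUG00000016253 was one of the most abundant of the 150, with medians of 1071, 1030, 6096 and 3935 in MeHg birds. Its first step was 0.30 ± 0.30 (SE, adjusted p = 0.416) and its second 2.18 ± 0.24 (SE, adjusted p = 2.19e-10). The birds of day 35 ran from 1246 to 19565 and those of day 18 from 364.5 to 2594, and these ranges overlapped.

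The most abundant of the genes, ENSTGUG00000000882, showed the opposite order. In MeHg birds it ran from 513 to 4122 normalised counts at day 6 (median 1392), from 1646 to 14719 at day 18 (7870), from 3671 to 23364 at day 35 (7698) and from 3531 to 27670 at day 90 (14247). The median was thus about the same at day 18 and day 35. Its first step was 2.56 ± 0.30 (SE, limma, adjusted p = 2.08e-11), its second 0.11 ± 0.24 (SE, adjusted p = 0.751), and a later rise from day 35 to day 90 of 0.87 ± 0.24 (SE) passed (adjusted p = 0.0302). In the control birds of the rule, which asked for means within 0.5 of each other after day 35, its medians were 10635 and 12756.

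From day 35 to day 90, where the rule had held the control means within 0.5, 17 of the 150 genes rose in MeHg birds and 0 fell (2.27% of genes tested rose and 0.57% fell). The median change was 0.28 and 78% of the 150 estimates were above 0, against a median of 0 over all genes tested. Without MeHg day 90 replicate 7 the count was 31 (3.95% of genes tested) and the median 0.38. On the 65 MeHg birds with a RIN the count was 9 (1.45%), and with RIN as a covariate in them 9 (1.48%). It was 0 in females alone and in each cohort alone, which hold fewer birds. In group means 66.7% of the 150 stayed within 0.5 of day 35, while 48 were at least 0.5 higher and 2 at least 0.5 lower. Among all genes tested 92.8% stayed within 0.5, 5.38% were at least that much higher and 1.79% lower. Of the 17 genes, 7 had also risen in both earlier steps, and the share of all genes tested that did so is not given here. The largest change among the 17 was that of ENSTGUG00000001539, with medians of 24.4 normalised counts at day 35 and 49.4 at day 90. Its log2 change was 1.12 ± 0.33 (SE, limma, adjusted p = 0.0472), a call lost in 8 of the alternatives. Neither this gene nor the next was among those 7. ENSTGUG00000006555 followed with medians of 73.1 and 156.8 (log2 1.02 ± 0.24 SE, adjusted p = 0.00775). Its day 90 birds ran from 48.4 to 383 and its day 35 birds from 41.8 to 177.

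The mean of the 150 genes in each bird, on the log2(normalised count + 1) scale, puts the ages in order. MeHg birds of day 6 ran from 4.57 to 6.25 (median 5.26), those of day 18 from 5.50 to 7.48 (6.93), those of day 35 from 6.95 to 7.93 (7.41) and those of day 90 from 6.12 to 8.28 (7.93). Day 6 and day 35 did not overlap. Of the 25 birds of day 18, 23 lay above the highest day 6 bird, and of the 21 birds of day 35, 10 lay above the highest day 18 bird. Day 35 and day 90 overlapped, with 11 of the 22 day 90 birds above the highest day 35 bird. The control birds that chose the genes ran from 4.25 to 5.71, from 6.16 to 7.25, from 6.67 to 8.32 and, without the 2 adults left out by the rule, from 6.41 to 8.20.

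The 150 genes together took a median of 0.229% of a MeHg bird's normalised counts at day 6, and 0.713%, 1.07% and 1.43% at the ages that followed. Within day 18 this share was lowest, at 0.271%, in MeHg day 18 replicate 26. That bird had a mean level of 5.50, below the other 24 MeHg birds of its age and inside the range of day 6, and a RIN of 7.70, the lowest of its group. Without it all but 9 of the genes still rose to day 18 (28.9% of genes tested rose). From there to day 35, 73 rose (16.9% of genes tested) against 78 with it (17.3%).

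**Figure D4:**
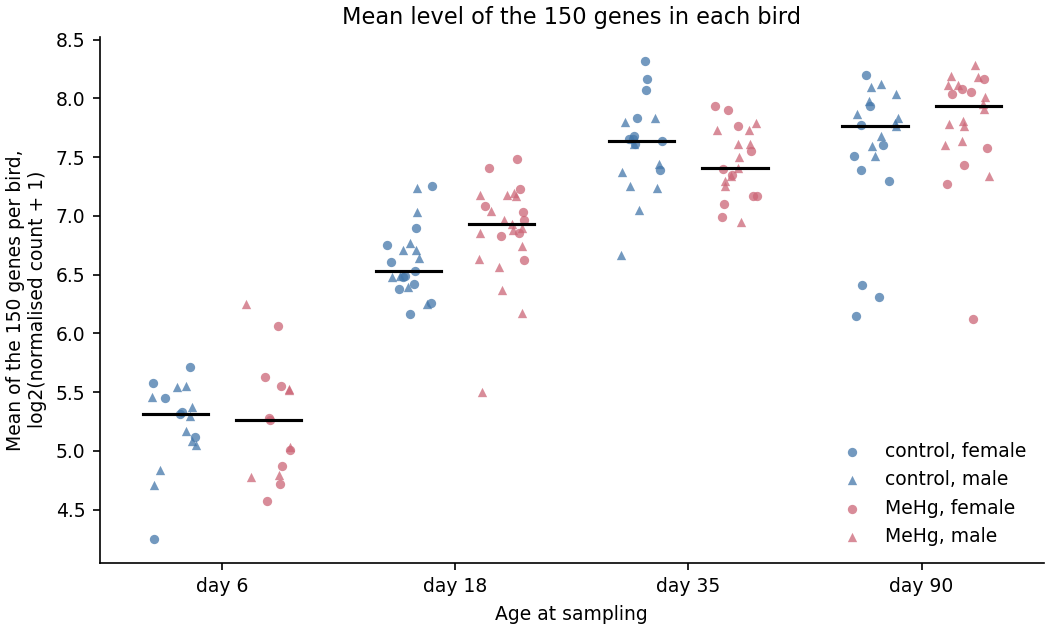
Mean of log2(normalised count + 1) over the 150 genes in each bird, by age (evenly spaced), treatment and sex, with bars at the group medians. MeHg medians are 5.26, 6.93, 7.41 and 7.93. A single day 18 MeHg male lies at 5.50, and 4 day 90 females lie between 6.12 and 6.41.

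At day 90, 4 females lay below all other adults in the mean level of these genes: MeHg day 90 replicate 7 at 6.12 and control day 90 replicates 15, 16 and 7 at 6.15, 6.31 and 6.41. The next bird was at 7.27. In these 4 birds 94, 94, 76 and 82 of the 150 genes lay below the lowest of the other 39 day 90 birds. Of all genes tested 20.3%, 19.5%, 15.9% and 6.84% did so in the same birds, so the libraries stood apart beyond the 150 genes. Compared with the median of those 39 birds, the median over the 150 genes was -1.73, -1.76, -1.46 and -1.35 on the log2 scale. These are descriptions, because the birds were picked by this level, and the rule itself left out 2 of them. Their reads numbered 7222967, 5901399, 5822865 and 8503786 and lay within the range of day 90 libraries. Their RIN was 9.70, 9.40, 8.70 and 9.30, within the range of 8.00 to 9.70 at that age, and the first of these equalled the highest there. Control day 90 replicate 7 was among the birds that chose the genes, and leaving it out as well kept 96% of the 150. With the 2 controls left out by the rule put back, 83.3% of the 150 were kept.

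**Figure D5:**
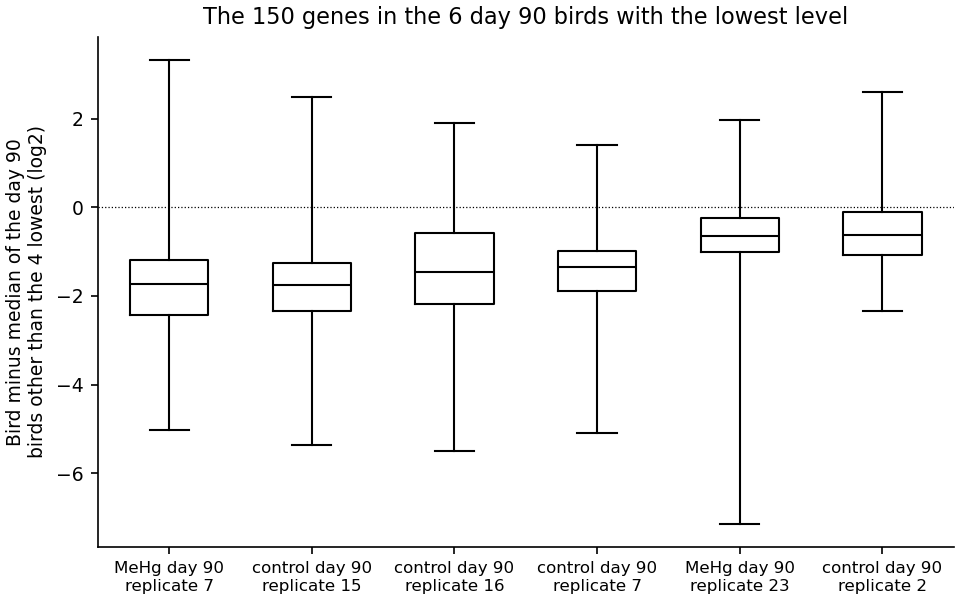
Difference of each of the 150 genes from its median over the day 90 birds other than the 4 lowest, on the log2 scale, in the 6 day 90 birds with the lowest mean level (a bird is left out of its own reference). Boxes span the middle 50% of genes with the median as a line, and whiskers reach the lowest and highest gene. The first 4 birds have medians between -1.35 and -1.76 and the next birds -0.64 and -0.62.

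Among birds of 1 age and treatment, the 150 genes tended to be high or low together. In MeHg birds the mean correlation between pairs of the genes was 0.32 across the 15 birds of day 6, 0.26 across the 25 of day 18, 0.16 across the 21 of day 35 and 0.35 across the 22 of day 90. The mean over pairs of all genes tested was 0 at each age. Pairs among the 832 other tested genes that rose at least as far from day 6 to day 35 in control birds had means of 0.13, 0.12, 0.06 and 0.19. Over the 83 MeHg birds, each set against its age mean, the values were 0.28 for the 150 and 0.14 for those 832, and without MeHg day 90 replicate 7 they were 0.24 and 0.11. The first axis of variation among the 150 held 45.5% of their variance at day 90 and 25.1% at day 35. These are descriptions: some birds shared plates, depth differed between birds, and cell makeup was not measured.

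Single genes differed greatly in how evenly birds carried them. ENSTGUG00000027230 had the smallest spread in day 35 MeHg birds, with an SD of 0.21 on the log2 scale. Its MeHg birds ran from 67.1 to 141.3 normalised counts at day 6, from 111.1 to 225.8 at day 18, from 157.8 to 268.5 at day 35 and from 148.5 to 316.5 at day 90, so that day 6 and day 35 did not overlap although the rise was small (log2 1.04 ± 0.10 SE, limma, adjusted p = 3.63e-14). ENSTGUG00000011490 was next with an SD of 0.34 and medians of 81.5, 197, 268 and 288. At the other end stood ENSTGUG00000026427 with an SD of 3.20. It ran from 0 to 1947 normalised counts in day 35 MeHg birds and had birds below 3 and above 400 at every age in that treatment. It is 1 of the 2 genes whose climb to day 35 did not pass in MeHg birds (log2 1.49 ± 1.13 SE, adjusted p = 0.267), although its control difference of 3.89 ranked it 10th among the 150. The other, ENSTGUG00000029082, had an SD of 1.47 and medians of 121.9, 242, 396 and 319 (log2 1.06 ± 0.57 SE, adjusted p = 0.109). The smallest climb that passed was that of ENSTGUG00000003476, with medians of 66.4 at day 6 and 88.1 at day 35 (log2 0.55 ± 0.17 SE, adjusted p = 0.00339). On the 65 MeHg birds with a RIN, and with RIN as a covariate, that estimate was 0.02 (limma, adjusted p = 0.972). The change of birds and the covariate are not told apart there.

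The limit of the list fell between genes that hardly differ. The last genes kept, ENSTGUG00000029082 and ENSTGUG00000008909, had control differences between day 35 and day 6 of 1.25 and 1.23 on the log2 scale, and the next, ENSTGUG00000011710 and ENSTGUG00000024043, had 1.22 and 1.19. When the same conditions were put to the MeHg birds, 0.969% of the genes tested met them, and 51 of those were among the 150. That is 34% of the 150 and 37.5% of the genes that met them in MeHg birds.

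Few of the genes were called between the sexes of MeHg birds. Over the 4 ages, 3 of the 150 were higher in males (4.03% of genes tested) and 0 higher in females (1.16%), with a median difference of -0.01. Female birds are the sex with unlike sex chromosomes, Z and W, and the chromosomes of these genes are not given here. ENSTGUG00000002197 had a median of 5306 normalised counts in 47 MeHg males (259 to 12667) and 2159 in 36 MeHg females (39.7 to 5764), a log2 difference of 1.01 ± 0.18 (SE, limma, adjusted p = 1.54e-05). ENSTGUG00000020342 had 322 in males (34.1 to 927) and 141.9 in females (12.8 to 375), a difference of 0.95 ± 0.13 (SE, adjusted p = 1.23e-08). In control birds the medians of these genes were 4750 against 2578 and 291 against 150. The third was ENSTGUG00000005717, with 209 against 123.4 in MeHg birds (log2 0.52 ± 0.15 SE, adjusted p = 0.0162). Ranges of the sexes, which pool ages, overlapped in each.

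The climb from day 6 to day 35 was compared between the sexes of MeHg birds in the same kind of fit. No gene of the 150 passed, and no other gene tested did (limma, 0% called). At an unadjusted p under 0.05 there were 7 of the 150 and 1407 of all genes tested, and the lowest adjusted p among the 150 was 0.282. edgeR and DESeq2 each called 0 of the 150, and over the whole table edgeR called 0 genes and DESeq2 2. The median difference, males minus females, was -0.29, against 0.01 over all genes tested, and 71.3% of the 150 estimates were below 0. These estimates are not independent, since the genes tended to be high or low together. With no covariates, the mean level of the 150 genes was 5.32 at day 6 and 7.47 at day 35 in males. In females it was 5.22 and 7.43. The comparison rests on 6 males and 9 females at day 6, of which replicates 9, 10 and 17 shared a plate with no other age.

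The 2 cohorts, whose difference the labels do not explain, were set against each other in MeHg birds over the 4 ages. Of the 150 genes 1 was higher in cohort 2 (4.44% of genes tested) and 2 were lower (3.65%), with a median difference of -0.11. ENSTGUG00000014649 had a median of 20.3 normalised counts in 48 birds of cohort 2 and 65.2 in 35 birds of cohort 1 (log2 -1.16 ± 0.36 SE, limma, adjusted p = 0.0298). ENSTGUG00000003579 had 324 against 413 (-0.44 ± 0.14 SE, adjusted p = 0.0376), and ENSTGUG00000028821 had 53.3 against 28.4 (0.59 ± 0.17 SE, adjusted p = 0.0213). None of the 3 calls held with the title code, an unexplained tag that birds share, as a random effect within cohort. Without MeHg day 18 replicate 26 the counts were 1 and 6. The share over all genes tested is not given for that setting, and nothing is read from these counts.

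MeHg birds and control birds were also compared over the mean of the 4 ages, with all 78 control and 83 MeHg birds in the fit. The control values that chose the genes enter this mean, so it is not independent of the choice, and the values are given as a description. At the same limit as above 6 of the 150 genes were higher with MeHg (3.78% of genes tested) and 1 was lower (3.70%), and nothing is read from these counts. The median difference was 0.10 and 72.7% of the 150 estimates were above 0, against a median of 0 over all genes tested. Of the 4 lowest day 90 birds, all but 1 were controls, and all of them were in this fit. By group means at day 90, the median of MeHg minus control was 0.26 with all controls. It was 0.09 without the 2 low control females that the rule leaves out. ENSTGUG00000010809 differed by 0.62 ± 0.14 (SE) on the log2 scale, with medians of 109.6, 464, 552 and 472 normalised counts in MeHg birds against 81.8, 180, 351 and 229 in control birds, and with ranges that overlapped at each age. ENSTGUG00000020499, described above, differed by 0.60 ± 0.16 (SE). ENSTGUG00000021559 differed by -0.69 ± 0.20 (SE), with medians of 26.45, 171.4, 132.9 and 264 against 65.1, 153.3, 349 and 290.

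At single ages the difference between MeHg and control birds was not tested, because the control means that chose the genes enter it. The median over the 150 genes of the MeHg mean minus the control mean was, in order of age, 0.05, 0.17, -0.13 and 0.09 on the log2 scale. With the 2 control birds that the rule leaves out put back, the day 90 value was 0.26. The MeHg mean was the higher in 58.7% of the genes at day 6, in 72.7% at day 18, in 31.3% at day 35 and in 64% at day 90. Over all genes tested the medians were -0.01 at day 6 and 0 at the other ages.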

How the data were processed

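Marrow RNA was extracted with an RNAzol reagent, selected on oligo(dT) beads and made into libraries with an NEBNext kit, per the labels' protocols. Tools listed in the submitters' processing notes are featureCounts, Subread, DESeq2 1.30.1 and R 4.0.2. No source used here states a genome build, an annotation or whether counting used strand, so overlapping genes, antisense genes and near-identical copies may share reads. The values deposited by the authors are a signal per gene, in which the reads of a library are all scaled by the same factor. With each library's lowest value above 0 taken as 1 read, 100% of values were whole within a relative tolerance of 1e-06.

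Of the labelled libraries 83 of MeHg birds and 78 of controls were used, and 8 were not analysed here. The 14042 genes tested reached 10 or more in 15 or more libraries. The fits used limma 3.58.1 (R 4.3.3; trend, robust) on log2(value + 1), with age, sex, cohort and plate, on the 83 MeHg birds alone, and with the groups of age and treatment on all birds for MeHg against control. The written design foresaw this test for normalised values. The sex by age fit held a group per sex and age. MeHg day 6 replicates 9, 10 and 17 were on a plate that held no other age. With plate as a covariate, these birds add little to the day 6 level set against later ages. A call is a Benjamini-Hochberg adjusted p under 0.05 over all genes tested. The added 1 shrinks the log2 differences of low genes. The fits of the first step, of sex and of MeHg were also run on simulated counts with known changes. Those counts were drawn independently, with no effect of plate or title code, so that run does not cover such effects. Alternatives were pseudocounts of 0.5 and 5, no filter, TMM scaling, edgeR 4.0.16 and DESeq2 1.42.0 on recovered reads, other covariates, birds of a shared title code and cohort as a random effect, and subsets of birds.

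The genes, the lists and the tests were chosen with earlier results of these data known. Named genes followed a written rule: the largest control climbs, the genes at the limit of the list, the most abundant, up to 2 called each way per comparison by size (some of these are given by count only), the smallest climbs, and the largest and smallest spread in day 35 MeHg birds. The third gene called by sex was named because the calls were few. The gene lists written by symbol could not be used.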

Additional observations from a re-analysis of the deposited data

How the results depend on the processing

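Counts of genes called stayed within 1.5 times their value in 80.9% of comparisons with an alternative and moved further in 29. The climb from day 6 to day 35 stayed so under all alternatives tried, and the first step under all but males alone (57). The second step (78) was 41 in females alone, 45 in cohort 1 and 32 in cohort 2. The difference between the steps (77) was 17 in males, 48 in cohort 1 and 44 in cohort 2. The rise to day 90 (17) was 26 by DESeq2, 9 on the birds with a RIN, 9 with RIN added, 31 without MeHg day 90 replicate 7, 19 without MeHg day 18 replicate 26, and 0 in females, in cohort 1 and in cohort 2. Genes differing by sex (3) were 5 by DESeq2 and 0 in cohort 1. Genes differing by cohort (3) were 9 by DESeq2, 7 without MeHg day 18 replicate 26, 1 on the birds with a RIN, 1 with RIN added, and 0 with extraction batch as the covariate and not plate, with the title code as a random effect, in males and in females. The MeHg difference (7), which is not independent of the choice of genes, was 3 with the title code, 1 in males, 0 in females, 3 in cohort 1 and 2 in cohort 2. Subsets hold fewer birds. The cause of the other moves was not tested. Among named genes 489 values stayed on their side of the threshold, 84 became weaker and 2 stronger, and ENSTGUG00000029082 turned to -0.46 in cohort 1 (adjusted p = 0.71). The alternatives without MeHg day 18 replicate 26, without the 4 lowest day 90 birds and without control day 90 replicate 7 were chosen after seeing the data. No paired analysis was possible because the labels carry no replicate numbers, and those used here only name birds in accession order. Birds that share a title code across ages were instead fitted with that code as a random effect, which moved the cohort and MeHg counts as given above and left the other counts within 1.5 times.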

Other observations

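The rule gives partly different genes when the sexes of the control birds are taken apart. In male controls alone 61 genes met the conditions, and 38 of them were among the 150 (62.3% of that list and 25.3% of the 150). In female controls alone 303 met them, and 64 of the 150 genes with the largest difference there were shared (42.7%). The control females of day 35 had mean levels of the 150 genes between 7.39 and 8.32 (n = 10) and the males between 6.67 and 7.83 (n = 9). In MeHg birds of that age the females lay between 6.99 and 7.93 (n = 10) and the males between 6.95 and 7.79 (n = 11). These control values chose the genes, and the difference between the treatments was not tested.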
